A study of Mus musculus with 12 samples.

Results

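The desmosomal cadherins and plakophilins of skin were followed in bulk RNA-seq libraries of whole mouse skin. The 10 genes were chosen by symbol, with no expression value in the rule but with earlier results of these data known. All 10 were found among the 53379 gene IDs of the count tables. They are the desmogleins Dsg1a, Dsg1b, Dsg2, Dsg3 and Dsg4, the desmocollins Dsc1, Dsc2 and Dsc3, and the plakophilins Pkp1 and Pkp3. All 10 passed the filter on low counts.

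The 12 libraries form 4 groups of 3. Nf1-KO injured and Nf1-KO uninjured mice carried Prss56Cre, the R26tdTom reporter and Nf1flox/-, and control injured and control uninjured mice carried Prss56Cre and R26tdTom without the Nf1 alleles. All mice were 3 months old on a background labelled C57BL/6 & B6D2, and injured skin was taken 14 days after injury. Neurofibromin, the product of Nf1, holds back RAS signalling. The Prss56 promoter drives Cre, and the knockout is meant for boundary cap cells, per the title of the series, which are neural crest derived and give rise to Schwann cells. The null allele of Nf1-KO mice does not depend on Cre, and all 4 groups carry Cre and the reporter. The labels do not say that the 3 samples of a group are separate animals, so the spread behind the p-values is that between these samples and may be technical.

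Desmosomes hold neighbouring keratinocytes together. Desmogleins and desmocollins are transmembrane cadherins that bind each other across the gap between cells, and plakophilins and plakoglobin join their tails to desmoplakin, which anchors the keratin filaments. The isoforms are layered in skin. Dsg3 and Dsc3 are known for the lower epidermis, Dsg1 and Dsc1 for the differentiated upper layers, Dsg2 and Dsc2 for many epithelia and the heart, and Dsg4 for the hair follicle, where its loss gives lanceolate hair in mice.

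Library totals ran from 8817013 to 16809687 counts, and the labelled tissue showed its markers, with 7 basal keratinocyte genes summing to 7640 or more CPM (counts put on one library total) after TMM scaling in every library. Several measures other than the injury moved with skin state. Xist, which marks female cells, had 436 to 627 raw CPM in injured libraries and 0.709 to 2.95 in uninjured libraries, and Ddx3y, which marks male cells, was at 0 to 0.0595 in injured and at 68.2 to 93.3 in uninjured libraries. Sex-marker state and injury therefore cannot be told apart in either genotype. The background read level over 1425 olfactory and vomeronasal receptor genes, which skin is not known to use, was 0.00225 to 0.0531 raw CPM per kilobase in injured and 0.0936 to 0.329 in uninjured libraries. The share of ribosomal RNA-like counts was 1.95% to 5.10% in injured and 1.03% to 2.55% in uninjured libraries. Nf1 itself was detected in every library, at 10.1, 8.14 and 14.1 raw CPM in Nf1-KO injured and 14.7, 8.98 and 10.6 in control injured skin, and at 9.94, 11 and 8.96 in Nf1-KO uninjured and 17.2, 13.7 and 9.41 in control uninjured skin. The ranges of Nf1 overlapped between genotypes in injured skin and in uninjured skin. Prss56 held 0 to 12 counts per library.

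In mm10 coordinates the 8 cadherin genes lie together on chromosome 18. The desmocollins are on the minus strand, with Dsc3 at chr18:19960930-20002351, Dsc2 at chr18:20030633-20059554 and Dsc1 at chr18:20084184-20114871. The desmogleins follow on the plus strand, with Dsg1a at chr18:20310811-20343350, Dsg1b at chr18:20376729-20410196, Dsg4 at chr18:20436175-20471821, Dsg3 at chr18:20510274-20547459 and Dsg2 at chr18:20558074-20604521. Pkp1 is at chr1:135871395-135919207 on the minus strand and Pkp3 at chr7:141078218-141090510 on the plus strand. Levels per kilobase below are over the exonic length of a gene. Dsg1a and Dsg1b are near-identical copies in part, since 31.6% of the 50-base windows of Dsg1a transcripts are also in Dsg1b and 45.5% of those of Dsg1b are also in Dsg1a, so the split of reads between them is uncertain. Dsg2 shares 330 exonic bases with the antisense gene Gm16090, which held 174 counts over the 12 libraries against 7105 for Dsg2, and the library kit does not mark strand.

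Set per kilobase of exon, the levels differed by a wide margin between the genes, and their order depended on skin state. In Nf1-KO injured skin Pkp3 led with 129 ± 53.9 TMM-normalised CPM per kilobase (SD, n = 3), ahead of Pkp1 with 78.8 ± 13.1, Dsg1a with 52.2 ± 20.7 and Dsc3 with 44.1 ± 15.1, and the ranges of these neighbours overlapped. Control injured skin had the same leading order, with Pkp3 at 142 ± 13.6, Pkp1 at 117 ± 11.2, Dsg1a at 71.5 ± 9.75 and Dsc3 at 55.0 ± 5.59, and no overlap between neighbours. Dsg1a, the main desmoglein of differentiated epidermis, led instead in uninjured skin, with 215 ± 22.2 in Nf1-KO and 309.8 ± 38.0 CPM per kilobase in control libraries, although its range overlapped that of Pkp1, the next gene, in the Nf1-KO group and that of Dsc3 in the control group.

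At the low end of that scale stood the genes with the least signal in intact skin. Dsg4 was lowest in Nf1-KO uninjured skin at 0.187 ± 0.0790 and in control uninjured skin at 0.362 ± 0.108 CPM per kilobase, below Dsc2 at 1.59 ± 0.377 and 2.45 ± 0.655 in these groups. In injured skin Dsg4 came to 2.87 ± 1.83 CPM per kilobase in Nf1-KO and 2.05 ± 0.442 in control libraries, which overlapped Dsg3 in the Nf1-KO group and lay below it in the control group. The summed level of the 8 cadherins was 109.6, 197 and 99.7 CPM per kilobase in Nf1-KO injured libraries 1 to 3, against 446, 493 and 355 in Nf1-KO uninjured libraries. It was 148, 181 and 182 in control injured libraries, against 574, 689 and 922 in control uninjured libraries. Every injured library held less summed cadherin signal than every uninjured library.

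**Figure D1:**
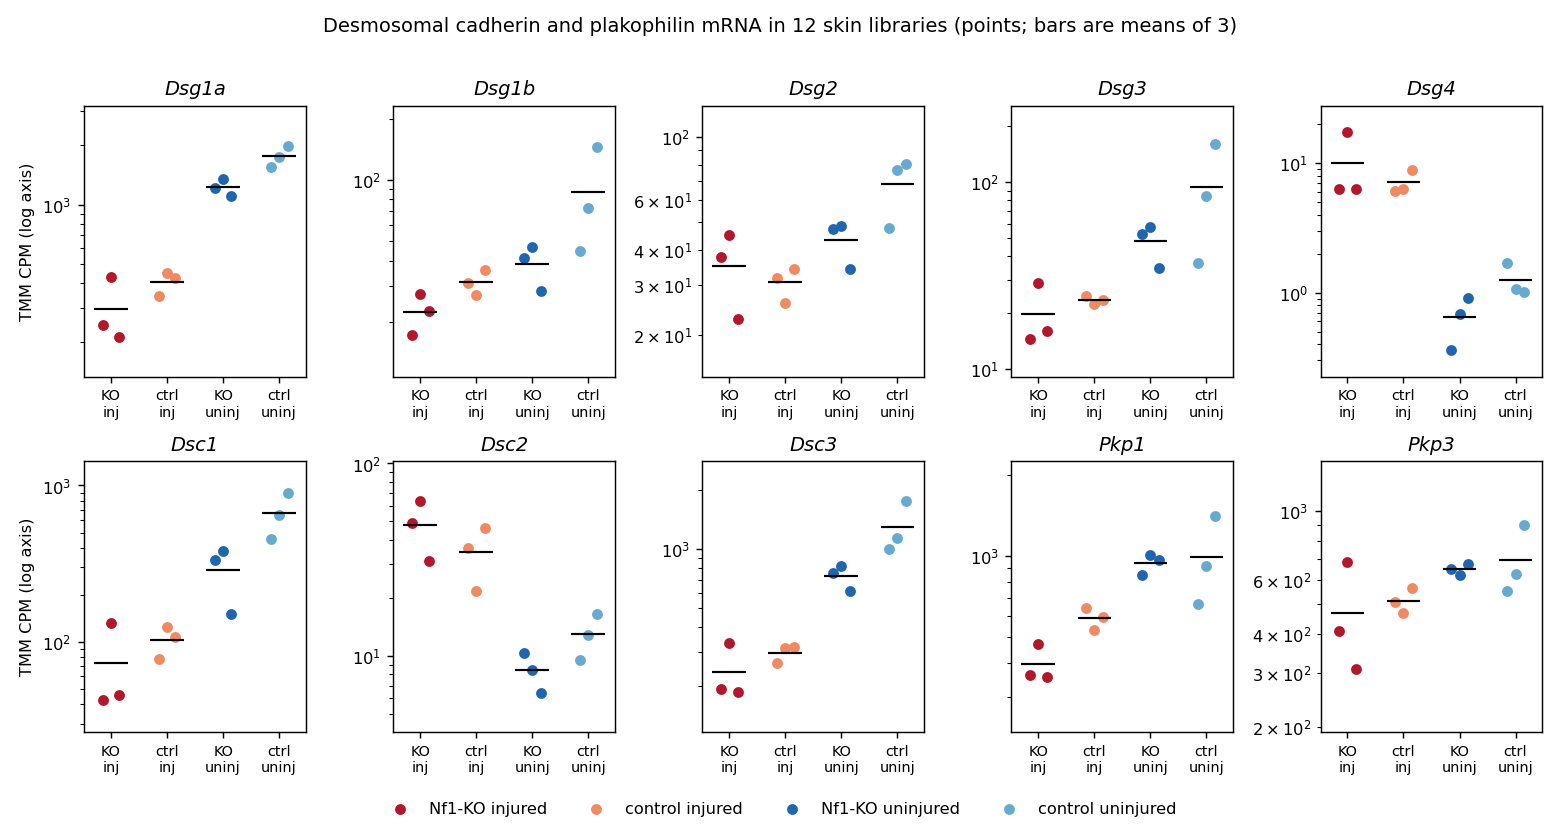
TMM-normalised CPM of each of the 10 genes (log axis, a scale of its own per panel) in the 12 libraries, with points for libraries and bars for the mean of 3. Dsg4 and Dsc2 are higher in all 6 injured libraries than in all 6 uninjured ones, while Dsg1a, Dsg3, Dsc1, Dsc3 and Pkp1 are lower in all 6 injured libraries.

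Under TMM scaling, injured skin carried less mRNA of Dsg1a, Dsg3, Dsc1, Dsc3 and Pkp1 and more of Dsg4 and Dsc2 in both genotypes, and less of Dsg1b and Dsg2 in control skin. In Nf1-KO skin 7 of the 10 genes changed, 2 up and 5 down (edgeR quasi-likelihood test, adjusted p under 0.05 over 23635 genes). Of all genes tested, 37.4% were called in that comparison, 19.1% higher and 18.4% lower. In control skin 9 of the 10 changed, 2 up and 7 down, beside 55.3% of all genes, 22.8% higher and 32.5% lower. The share of members called higher was close to the background in each genotype, and the share called lower was above it. At an unadjusted p under 0.05 there were 8 of the 10 in Nf1-KO skin, beside 48.1% of all genes, and 9 of the 10 in control skin, beside 60.4%. The log2 fold change was below 0 for 8 of the 10 in each genotype, beside 53.8% of all genes in Nf1-KO skin and 56.7% in control skin. The median log2 fold change of the 10 genes was -1.02 in Nf1-KO skin, beside -0.09 for all genes, and -1.32 in control skin, beside -0.21 for all genes. In whole skin, fewer cells of a type and less RNA per cell cannot be told apart. No overlap between the groups was seen for 8 of the 10 genes in Nf1-KO skin, beside 51.6% of all genes, and for 9 of the 10 in control skin, beside 62.4%.

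Dsg4, the hair follicle desmoglein, had the largest rise of the 10 genes. It stood at 6.35, 17.4 and 6.28 TMM-normalised CPM in Nf1-KO injured libraries 1 to 3, against 0.358, 0.690 and 0.903 in Nf1-KO uninjured libraries. In control skin it stood at 6.13, 6.33 and 8.89 CPM in injured libraries, against 1.69, 1.07 and 1.01 in uninjured libraries. Each injured library was above each uninjured library, and Nf1-KO injured library 2 was the highest of all. The log2 fold change was 3.92 ± 0.50 (SE) in Nf1-KO skin (15.2-fold, adjusted p = 2.30e-05) and 2.51 ± 0.46 in control skin (5.69-fold, adjusted p = 0.000435), and in Nf1-KO skin it was 3.26 without Nf1-KO injured library 2. The counts behind the uninjured values were small, with 4, 9 and 10 reads in Nf1-KO and 18, 14 and 16 in control libraries, against 69 to 246 reads in injured libraries. Those levels were near the receptor gene background of the same libraries. In raw CPM per kilobase, Dsg4 had 0.883, 1.08 and 2.22 times the background in Nf1-KO uninjured libraries 1 to 3 and 1.78, 1.38 and 3.17 times the background in control uninjured libraries, whereas in injured libraries it had at least 30.2 times the background. The part of background reads in the uninjured level, and so in the fold, was not tested.

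Dsg1a, the desmoglein with the most signal, fell. It had 245, 431 and 214 CPM in Nf1-KO injured libraries 1 to 3, against 1215, 1355 and 1102 in Nf1-KO uninjured libraries. Its levels were 345, 452 and 423 CPM in control injured libraries, against 1551, 1750.2 and 1983 in control uninjured libraries. All 6 injured values were below all 6 uninjured values. The log2 fold change was -2.04 ± 0.27 in Nf1-KO skin (4.13-fold lower, adjusted p = 3.16e-05) and -2.12 ± 0.27 in control skin (4.33-fold lower, adjusted p = 2.65e-05).

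Dsg3, the desmoglein of the basal and lower spinous layers and the antigen of pemphigus vulgaris, had 14.5, 28.9 and 15.8 CPM in Nf1-KO injured libraries, against 52.4, 57.8 and 34.6 in Nf1-KO uninjured libraries. It had 24.6, 22.2 and 23.3 CPM in control injured libraries, against 37.1, 84.6 and 160.0 in control uninjured libraries. The control uninjured group was the most scattered, with library 1 lowest and library 3 highest. Dsg3 changed by -1.29 ± 0.44 in Nf1-KO skin (adjusted p = 0.0384) and by -2.01 ± 0.45 in control skin (adjusted p = 0.00290). The call in Nf1-KO skin was lost without Nf1-KO injured library 1 (-1.06) or 3 (-1.16), and without Nf1-KO uninjured library 1 (-1.26) or 2 (-1.17), and the change in control skin was -1.27 without control uninjured library 3.

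Dsg1b, a mouse paralog of Dsg1a, ranged from 17.1 to 27.3 CPM in Nf1-KO injured and from 28.2 to 46.5 in Nf1-KO uninjured libraries, and from 26.9 to 36.0 in control injured and 44.5 to 144 in control uninjured libraries. It changed by -1.48 ± 0.35 in control skin (adjusted p = 0.00280). Without control uninjured library 3 that change was -0.79 and still called. In Nf1-KO skin its change of -0.79 missed the threshold (95% interval -1.53 to -0.05, adjusted p = 0.0835), although the ranges did not overlap, and it was called with median-of-ratios scaling (-0.91, adjusted p = 0.0479) and with DESeq2 (-0.91, adjusted p = 0.0406). Dsg2, the desmoglein of simple epithelia and heart, ranged from 22.9 to 45 CPM in Nf1-KO injured and from 34.3 to 48.7 in Nf1-KO uninjured libraries, which overlapped. Its range was 26.1 to 34.3 CPM in control injured and 47.9 to 80.4 in control uninjured libraries. The change of Dsg2 was -0.30 in Nf1-KO skin (95% interval -0.83 to 0.23, adjusted p = 0.356) and -1.15 ± 0.25 in control skin (adjusted p = 0.00155).

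Dsc2, the most widely expressed desmocollin in the body, was the other gene that rose. It had 48.8, 64.1 and 31.0 CPM in Nf1-KO injured libraries, against 10.4, 8.43 and 6.41 in Nf1-KO uninjured libraries. It had 36.2, 21.8 and 46.4 CPM in control injured libraries, against 9.50, 12.8 and 16.4 in control uninjured libraries. The lowest injured value, in control injured library 2, was above the highest uninjured value, in control uninjured library 3. The log2 fold change was 2.51 ± 0.32 in Nf1-KO skin (5.70-fold, adjusted p = 3.22e-05) and 1.42 ± 0.31 in control skin (2.68-fold, adjusted p = 0.00152). Without control uninjured libraries 1 and 2, which had the most receptor gene background, the change in control skin was 1.08 with adjusted p = 0.0999, and the number of members called there was 8.

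Dsc1, the desmocollin of the upper epidermis, showed the steepest fall in control skin. Nf1-KO injured libraries had 42.3, 132 and 45.5 CPM, against 334, 383 and 151 in Nf1-KO uninjured libraries. Control injured libraries had 78.1, 124 and 108 CPM, against 456, 644 and 891 in control uninjured libraries. The groups did not overlap in either genotype, although Nf1-KO injured library 2 and Nf1-KO uninjured library 3 came close to each other. The log2 fold change of Dsc1 was -1.98 ± 0.47 in Nf1-KO skin (3.95-fold lower, adjusted p = 0.00664) and -2.68 ± 0.48 in control skin (6.42-fold lower, adjusted p = 0.000801), and in Nf1-KO skin it was -2.74 without Nf1-KO injured library 2.

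Dsc3, the desmocollin of the basal layer, had 195, 332 and 187 CPM in Nf1-KO injured libraries, against 759.8, 818 and 613 in Nf1-KO uninjured libraries. In control skin it had 262, 313 and 316 CPM in injured libraries, against 1004, 1143 and 1750.1 in uninjured libraries. As for Dsg1a, all 6 injured values were below all 6 uninjured values. It fell, with log2 fold changes of -1.62 ± 0.27 in Nf1-KO skin (3.07-fold lower, adjusted p = 0.000296) and -2.13 ± 0.28 in control skin (4.37-fold lower, adjusted p = 3.27e-05).

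Of the plakophilins, Pkp1 was lower in injured skin and Pkp3 did not pass the test. Pkp1, which strengthens desmosomes in the suprabasal epidermis and whose loss causes skin fragility in people, had 361, 472 and 355 CPM in Nf1-KO injured libraries, against 849, 1013 and 969 in Nf1-KO uninjured libraries. It had 641, 529 and 593 CPM in control injured libraries, against 661, 919.8 and 1406 in control uninjured libraries. The Nf1-KO groups were far apart, while control injured library 1 and control uninjured library 1 were nearly equal. Pkp1 changed by -1.25 ± 0.26 in Nf1-KO skin (2.38-fold lower, adjusted p = 0.00151) and by -0.76 ± 0.26 in control skin (1.69-fold lower, adjusted p = 0.0188). The call in control skin was lost without control uninjured library 3 (-0.32), control injured library 2 (-0.65) or control injured library 3 (-0.73).

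Pkp3, which is found in all living layers of the epidermis, had 409, 685 and 309 CPM in Nf1-KO injured libraries, against 651, 619 and 674 in Nf1-KO uninjured libraries. It had 507, 466 and 564 CPM in control injured libraries, against 549.6, 624 and 904 in control uninjured libraries. The groups overlapped in both genotypes. Its change of -0.47 in Nf1-KO skin (95% interval -1.04 to 0.10, adjusted p = 0.176) and of -0.43 in control skin (95% interval -1.01 to 0.14, adjusted p = 0.184) did not pass the test. Without Nf1-KO injured library 2, the highest of its group, the change in Nf1-KO skin was -0.85 with adjusted p = 0.0145.

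**Figure D2:**
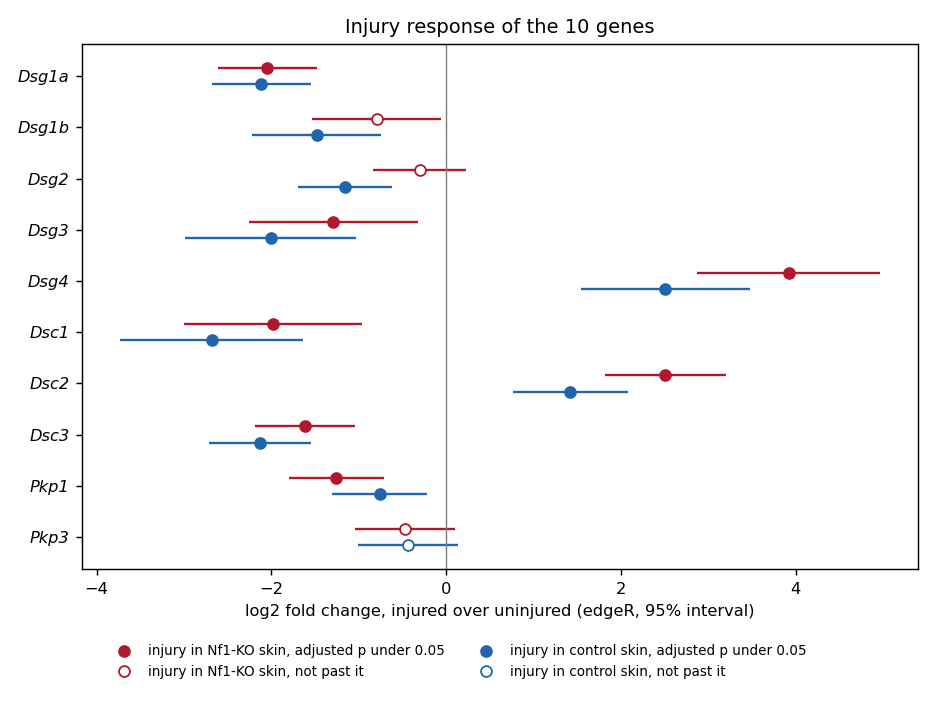
Log2 fold change of injured over uninjured skin for each gene, with Nf1-KO skin above control skin in each pair, and 95% intervals from edgeR. Filled points passed adjusted p under 0.05, and the unfilled points are Dsg1b, Dsg2 and Pkp3 in Nf1-KO skin and Pkp3 in control skin. Dsg4 and Dsc2 stand to the right of 0 and the other 8 genes to the left.

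Shares within a family do not depend on how a library is scaled. Dsg4 made up 3.98% ± 0.99 of the summed desmoglein level per kilobase in Nf1-KO injured skin and 0.0806% ± 0.0403 in Nf1-KO uninjured skin (SD, n = 3 each; exact permutation p = 0.1, 2-sided). In control skin its share was 2.30% ± 0.40 after injury and 0.108% ± 0.0502 without it (SD, n = 3 each; exact permutation p = 0.1). With 3 against 3 libraries, 0.1 is the smallest p this test can give. Dsg1a had 76.4% ± 1.61 of the desmoglein level in Nf1-KO injured and 90.7% ± 1.22 in Nf1-KO uninjured skin, and 80.2% ± 3.31 in control injured and 88.0% ± 4.44 in control uninjured skin. The Dsg1a shares did not overlap in Nf1-KO skin and overlapped in control skin, and no test was run on them. Dsg1a was the main desmoglein in all 12 libraries.

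Among desmocollins, Dsc3 held most of the summed level in each group, with means of 66.2% in Nf1-KO injured, 67.1% in control injured, 70.6% in Nf1-KO uninjured and 64.4% in control uninjured skin. Dsc2 held 13.7% ± 3.02 in Nf1-KO injured and 0.827% ± 0.123 in Nf1-KO uninjured skin, and 8.12% ± 2.90 in control injured and 0.659% ± 0.0477 in control uninjured skin. The share of Dsc1 was 20.02% ± 5.55 in Nf1-KO injured and 28.5% ± 6.80 in Nf1-KO uninjured skin (SD, n = 3 each; exact permutation p = 0.2), with overlapping ranges. It was 24.8% ± 3.29 in control injured and 35.0% ± 2.44 in control uninjured skin (SD, n = 3 each; exact permutation p = 0.1), with no overlap. Of the summed Pkp1 and Pkp3 level, Pkp1 held 39.1% ± 6.06 in Nf1-KO injured and 51.1% ± 2.84 in Nf1-KO uninjured skin (SD, n = 3 each; exact permutation p = 0.1), and 45.2% ± 2.31 in control injured and 50.2% ± 3.39 in control uninjured skin (SD, n = 3 each; exact permutation p = 0.2).

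**Figure D3:**
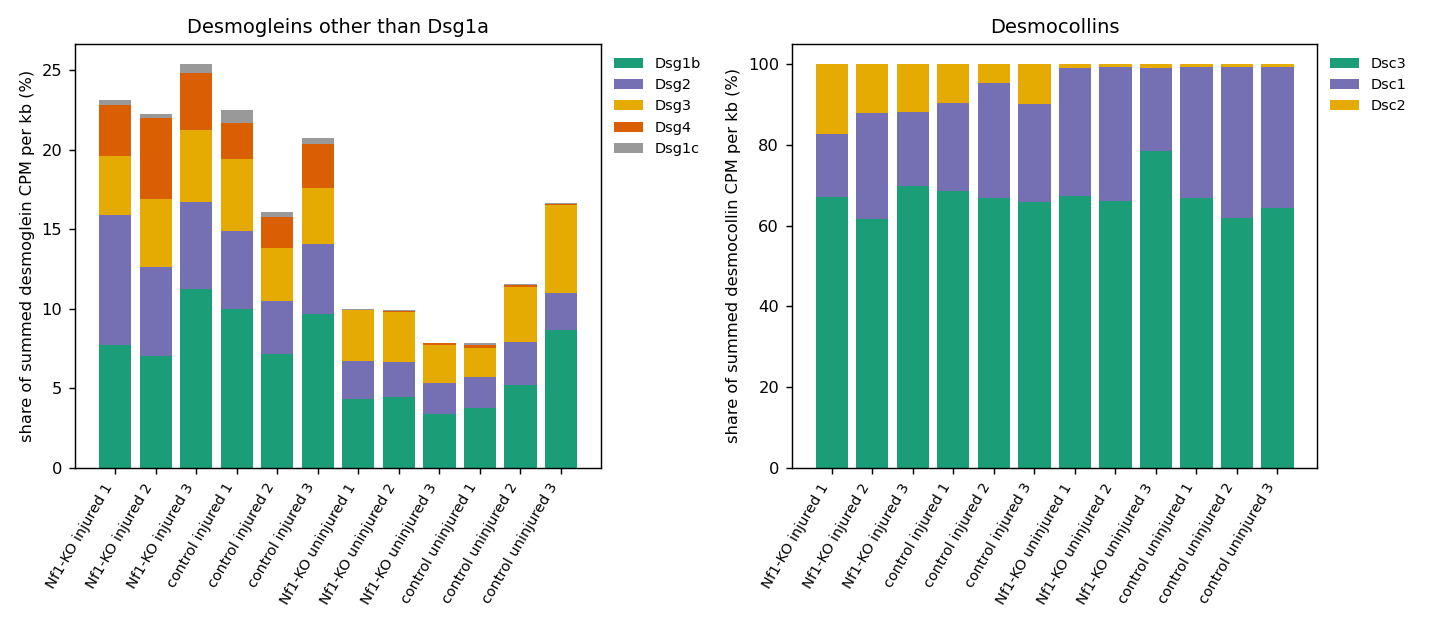
Share of each gene in the summed level per kilobase of its family, per library, as stacked bars in percent, with the desmogleins other than Dsg1a on the left and the desmocollins on the right; Dsg1c, a further Dsg1 paralog, is part of the desmoglein sum. The Dsg4 and Dsc2 segments are visible in the 6 injured libraries and almost absent from the 6 uninjured ones.

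The makeup of the tissue differed with skin state, as far as marker genes show it. The summed level of 7 pan-epithelial markers was 783 to 1480 CPM in Nf1-KO injured and 1883 to 2253 in Nf1-KO uninjured skin, and 1321 to 1432 in control injured and 1968 to 3082 in control uninjured skin. Of these 7 genes, 6 fell in Nf1-KO skin and 5 in control skin. Basal keratinocyte markers were lower in sum in injured skin without overlap, with 6 of 7 called lower in each genotype. The 9 suprabasal and granular markers summed to 11849 to 13942 CPM in Nf1-KO injured and 27331 to 40890.1 in Nf1-KO uninjured skin, with 5 called lower and 1 higher. Their sums nearly met in control skin, at 18056 to 23611 CPM in injured and 23711 to 29752 in uninjured libraries, with 4 called lower and 2 higher. The 8 inner root sheath markers summed to 9185 to 30415 CPM in Nf1-KO injured and 606 to 678 in Nf1-KO uninjured skin, and to 11756 to 19206 in control injured and 568 to 709.9 in control uninjured skin, with 7 of 8 higher in both genotypes and Gata3 lower under TMM scaling but not under scaling to pan-epithelial genes. The 9 hair shaft markers that could be matched, all except Krt85, rose in both genotypes. They summed to 3349 to 7725 CPM in Nf1-KO injured and 27.0 to 44.9 in Nf1-KO uninjured skin, and to 2650.1 to 7253 in control injured and 19.2 to 30.6 in control uninjured skin. Fibroblast markers rose in both genotypes, 7 of 7 in each. Fibroblast, skeletal muscle, cardiac muscle, adipocyte, melanocyte, macrophage, endothelial, sebaceous gland and outer root sheath markers were higher in sum in injured skin in both genotypes, without overlap. Cardiac muscle sums nearly met in control skin, at 33.2 against 32.2 CPM, with 1 gene called higher and 1 lower of 3 tested. The outer root sheath and bulge list had 3 of 9 genes called higher in Nf1-KO skin and 6 of 9 in control skin. In each genotype 1 of its genes was called lower. Sebaceous gland sums nearly met in Nf1-KO skin, at 1306 against 1276 CPM, with 2 of 6 genes called higher. T cell and Schwann cell sums were lower in injured control skin without overlap, and overlapped in Nf1-KO skin. Langerhans and dendritic sums were higher in injured control skin without overlap, with 0 genes called higher and 1 lower. In Nf1-KO skin those sums overlapped. No marker of these lists was at 0 in every library. The part of these shifts in the cadherin changes was not tested.

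A fit that scaled each library to its 7 pan-epithelial genes asked how the 10 genes moved relative to those 7. The 7 genes do not stand for all epithelial mRNA, since inner root sheath and hair shaft sums rose while theirs fell. That scaling raised the median log2 fold change of all genes by 1.09 in Nf1-KO skin and by 0.83 in control skin, and turned the split of calls to 12240 higher and 793 lower in Nf1-KO skin, against 4506 and 4345 with TMM, and to 9884 higher and 3970 lower in control skin, against 5393 and 7679. Dsg1a, Dsc1 and Dsc3 were still called lower, at -1.04, -1.04 and -0.59 in Nf1-KO skin and at -1.27, -1.80 and -1.25 in control skin. Dsg4 and Dsc2 were called higher, at 4.84 and 3.53 in Nf1-KO skin and at 3.30 and 2.28 in control skin.

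The calls on the other members depended on the scaling in at least 1 genotype, except Pkp3, which was not called. Dsg3 was called lower in control skin (-1.06) but not in Nf1-KO skin (-0.27). Dsg2 changed direction and was called higher in Nf1-KO skin at 0.73 (adjusted p = 0.0119), and was not called in control skin at -0.30. Dsg1b lost its call in control skin at -0.55 and stood at 0.29 in Nf1-KO skin. Pkp1 was not called at -0.19 in Nf1-KO and 0.13 in control skin, nor was Pkp3 at 0.51 and 0.43. With the share of ribosomal RNA-like counts as a covariate, Dsg1a, Dsg4, Dsc1, Dsc2 and Dsc3 were called in both genotypes, together with Pkp1 in Nf1-KO skin, and the calls on Dsg1b, Dsg2, Dsg3 and Pkp1 in control skin and on Dsg3 in Nf1-KO skin were lost. Dsg1a, Dsg4, Dsc1 and Dsc3 kept their call and their direction in both genotypes under all 15 alternatives run for each comparison.

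**Figure D4:**
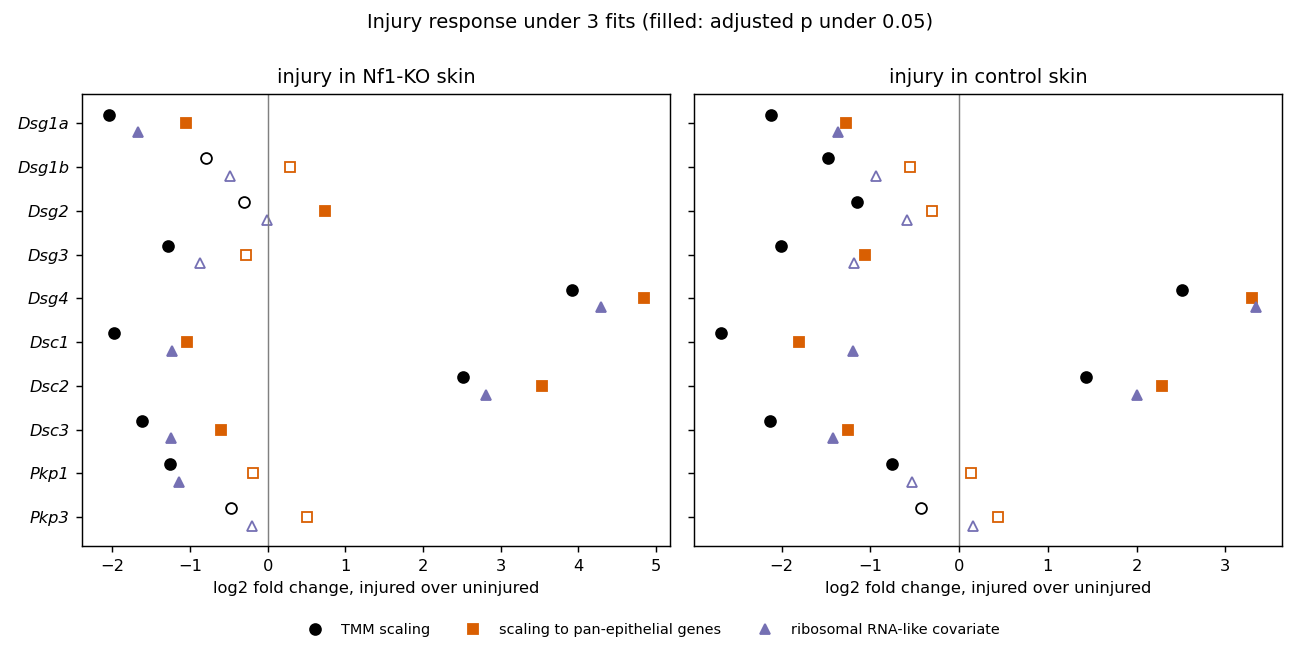
Log2 fold change of injured over uninjured skin for each gene under TMM scaling (circles), scaling to pan-epithelial genes (squares) and TMM scaling plus a covariate for ribosomal RNA-like counts (triangles), with Nf1-KO skin on the left and control skin on the right; filled marks passed adjusted p under 0.05. Dsg4 and Dsc2 stay to the right of 0 and Dsg1a, Dsc1 and Dsc3 to the left, while Pkp3, Pkp1, Dsg2 and Dsg1b lie on either side of 0 in at least 1 genotype.

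The Nf1 genotype moved none of the 10 genes past the threshold in the fit described above. In uninjured skin, 0 of the 10 were called in Nf1-KO against control, beside 0.0296% of all genes, 0.0254% higher and 0.00423% lower (7 genes; DESeq2 called 60 genes and none of the 10). All 10 log2 fold changes were below 0, beside 54% of all genes, with a median of -0.74 beside -0.04 for all genes. An unadjusted p under 0.05 was reached by 5 of the 10, beside 8.34% of all genes. These were Dsg1b (-1.18), Dsc1 (-1.20), Dsg3 (-0.96), Dsc3 (-0.83) and Dsg2 (-0.65), with adjusted p from 0.496 to 0.588. Dsg1a, Dsg4, Dsc1 and Dsc3 did not overlap between genotypes, which holds for 14.8% of all genes. For Dsg4 this rested on 4, 9 and 10 reads in Nf1-KO and 18, 14 and 16 in control libraries, near the receptor gene background. Dsc3, for example, averaged 730.1 ± 106 CPM in Nf1-KO uninjured and 1299 ± 397 in control uninjured libraries (SD, n = 3 each). Pkp1 and Pkp3 stayed close to 0, at -0.08 (95% interval -0.61 to 0.46) and -0.10 (95% interval -0.67 to 0.48), and both turned positive without control uninjured library 3, at 0.26 and 0.15. With no filter on low counts Dsg1b was called (-1.14, adjusted p = 0.000767). This comparison and that of injury in control skin share the 3 control uninjured libraries. Basal keratinocyte markers summed to 18909 to 25139 CPM in Nf1-KO uninjured and 15226 to 21244 in control uninjured skin. Suprabasal and granular ones summed to 27331 to 40890 and 23711 to 29752 CPM, and pan-epithelial ones to 1883 to 2253 and 1968 to 3082. These sums overlapped between genotypes, with 0 genes called. Langerhans and dendritic sums were higher and skeletal muscle sums lower in Nf1-KO skin, without overlap. Their part in the members' values was not tested.

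In injured skin, 0 of the 10 genes were called in Nf1-KO against control, beside 0% of all genes. At an unadjusted p under 0.05 there were 2532 genes, 10.7% of those tested, and DESeq2 called 124 genes and none of the 10. Pkp1 was the only member with an unadjusted p under 0.05 and without overlap (9.05% of all genes), at 396 ± 65.8 CPM in Nf1-KO injured and 588 ± 56.1 in control injured libraries (SD, n = 3 each), a log2 fold change of -0.57 ± 0.25 with adjusted p = 0.443. Dsg4 stood at 0.49 (95% interval -0.37 to 1.35) and Dsc2 at 0.46 (95% interval -0.18 to 1.10). Dsg4 was negative, at -0.22, without Nf1-KO injured library 2. The other members ranged from -0.49 for Dsc1 to 0.20 for Dsg2, and 7 of the 10 were below 0, beside 34.3% of all genes. Keratinocyte markers were also lower in sum without overlap, the basal ones at 7640.5 to 10724 CPM in Nf1-KO injured and 12641 to 14070.1 in control injured skin, and the suprabasal ones at 11849 to 13942 CPM in Nf1-KO injured and 18056 to 23611 in control injured skin, with 0 of these genes called. Their part in the members' values was not tested.

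**Figure D5:**
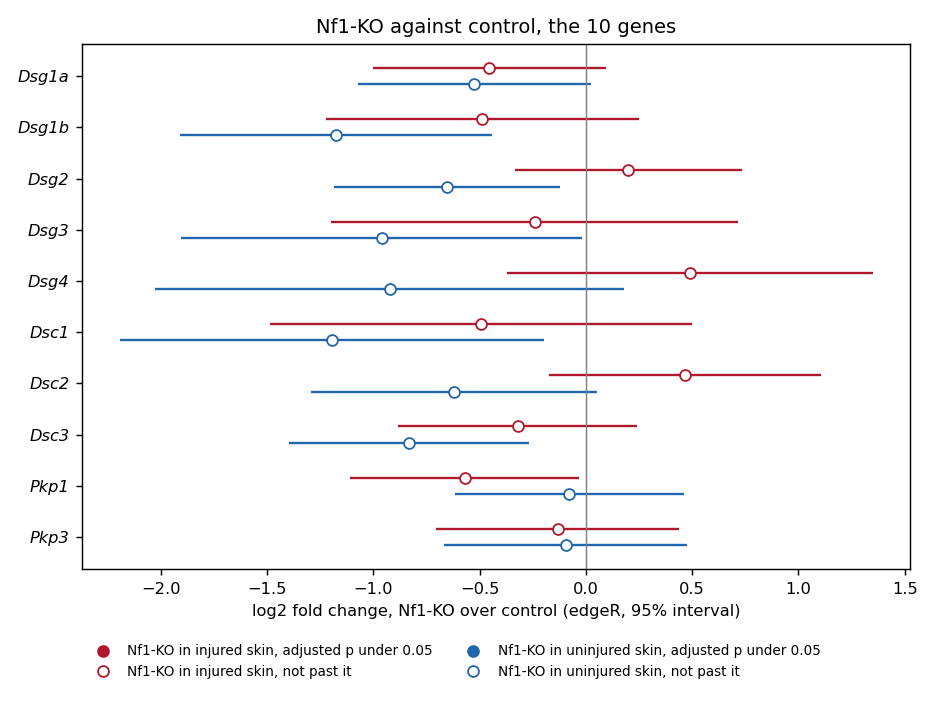
Log2 fold change of Nf1-KO over control skin for each gene with 95% intervals from edgeR, with injured skin above uninjured skin in each pair. No point is filled, since none passed adjusted p under 0.05, and all 10 uninjured estimates lie left of 0.

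The response to injury was not shown to differ between genotypes for any of the 10 genes. In the fit of Nf1-KO response minus control response, 0 passed the interaction test, beside 0% of all genes. An unadjusted p under 0.05 was found for 2541 genes, 10.8% of those tested, and DESeq2 called 37 genes and no member. The 3 members at that unadjusted level were Dsc2, with a difference in log2 fold change of 1.09 ± 0.44 (adjusted p = 0.445), Dsg4 with 1.41 ± 0.66 (adjusted p = 0.462) and Dsg2 with 0.85 ± 0.36 (adjusted p = 0.450). For Dsc2 and Dsg4 the estimated rise was larger in Nf1-KO skin, and for Dsg2 the estimated fall was smaller there. The Dsg4 estimate rests on the small uninjured counts near the receptor gene background. The estimate was below 0 for 2 of the 10 genes, Pkp1 (-0.49) and Pkp3 (-0.04), beside 39.6% of all genes. The sign depended on a setting or a library for Dsg1a, Dsg3, Dsc1, Pkp1 and Pkp3.

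Libraries of a group that were high in 1 member were often high in others. After group means were subtracted from log2 CPM, the highest Pearson r over the 12 libraries was 0.95, for Dsg1b and Dsg3. Dsc1 and Dsc3 had 0.92, and Dsg1a had 0.90 with Dsc1 and also with Dsc3. Dsg3 and Pkp1 had 0.895, and Dsg2 and Dsc2 had 0.893. Dsg4 was the member least tied to the others, with r from -0.09 with Dsg1b to 0.56 with Dsg1a. In uninjured libraries it held only 4 to 18 reads, near the receptor gene background. The part of counting noise in its r values was not tested. These values are descriptions, and the points share library composition and depth. Ranked by Pearson r over all 12 libraries among 12034 genes averaging at least 5 CPM, the genes most like Dsg4 were Otop2, the hair keratin Krt40 and S100a7a (r = 0.98 each; 0.83, 0.81 and 0.84 after group means were subtracted). Dsc2 was most like the zinc transporter gene Slc39a10 (r = 0.98), Rab3ip and Pank3 (r = 0.97 each), and Dsg1a was most like Sun1, Pof1b and the amino acid transporter gene Slc6a14 (r = 0.99 or above). The 12 points fall in 4 groups that differ in skin state.

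Most of the partner genes of the desmosome that changed after injury fell. Of 9 partners, 1 rose and 5 fell in Nf1-KO skin after injury, beside 19.1% and 18.4% of all genes, with a median log2 fold change of -0.86 beside -0.09 for all genes. In control skin 1 rose and 4 fell, beside 22.8% and 32.5% of all genes, so the count there was not far from the background, with a median of -0.46 beside -0.21. Ppl, which encodes periplakin of the cornified envelope, fell in both (-1.67 ± 0.24 in Nf1-KO skin, adjusted p = 8.61e-05, and -1.52 ± 0.24 in control skin, adjusted p = 0.000173). Perp, a tetraspan protein of the desmosome, fell in both, at -1.55 ± 0.30 in Nf1-KO skin and -1.17 ± 0.30 in control skin. Jup, which encodes plakoglobin, also fell, at -1.25 ± 0.30 in Nf1-KO skin and -0.93 ± 0.29 in control skin. Dsp, the desmoplakin that ties the plaque to keratin filaments, averaged 1010.3 ± 227 CPM in Nf1-KO injured and 2160.4 ± 235 in Nf1-KO uninjured skin and was called there (-1.10, adjusted p = 0.00146), but not in control skin, where it averaged 1387 ± 92.7 CPM in injured and 1908 ± 83.1 in uninjured libraries (-0.46, adjusted p = 0.0890). Evpl, the envoplakin partner of periplakin, fell, at -0.86 ± 0.24 in Nf1-KO skin and -0.79 ± 0.24 in control skin. Named after their values were seen, the genes that rose were Pkp2, the plakophilin of heart and simple epithelia, in Nf1-KO skin (1.23 ± 0.36) and Pkp4 in control skin (0.49 ± 0.18). With the ribosomal RNA-like covariate 5 were called lower in Nf1-KO skin and 1 in control skin, beside 2318 and 4131 of all 23635 genes. Relative to pan-epithelial genes, Ppl alone of the 9 was called lower, at -0.64 in Nf1-KO and -0.66 in control skin. That scaling called 3 of the 9 higher in Nf1-KO skin and 1 in control skin, beside 12240 and 9884 of all 23635 genes. By genotype 0 of the 9 were called in uninjured skin, where 2 had an unadjusted p under 0.05 and Pkp4 had the smallest (0.56, adjusted p = 0.537), and 0 in injured skin, where Cdsn, the corneodesmosin gene, was the only one at that level (-0.57, adjusted p = 0.419). In the interaction 0 of the 9 were called, and Pkp4 had the smallest p (-0.79, adjusted p = 0.442).

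The adherens junction is the other cadherin junction of keratinocytes. With TMM scaling 2 of its 9 genes rose and 2 fell in each genotype, shares near or below those of all genes (19.1% higher and 18.4% lower in Nf1-KO skin, 22.8% and 32.5% in control skin). The median log2 fold change was 0.02 in Nf1-KO skin, beside -0.09 for all genes, and 0.09 in control skin, beside -0.21. With the ribosomal RNA-like covariate 3 were called higher in Nf1-KO skin and 2 in control skin, and 0 lower in either. Of all 23635 genes, that fit called 3101 higher and 2318 lower in Nf1-KO skin, and 2928 higher and 4131 lower in control skin. Cdh3, the P-cadherin of the hair matrix and basal layer, rose, at 0.86 ± 0.23 in Nf1-KO skin (adjusted p = 0.00962) and 0.75 ± 0.23 in control skin (adjusted p = 0.0123). Nectin1, an immunoglobulin-like adhesion receptor, rose, at 0.85 ± 0.31 in Nf1-KO skin and 1.90 ± 0.31 in control skin. Cdh1, the E-cadherin gene, fell under TMM scaling, at -0.88 ± 0.25 in Nf1-KO skin and -0.79 ± 0.24 in control skin. Nectin4 fell in Nf1-KO skin (-0.68) and the alpha-catenin gene Ctnna1 in control skin (-0.55). Relative to pan-epithelial genes, a list that itself contains Cdh1, 7 of the 9 were called higher and 0 lower in each genotype. Nectin4 was at 0.33 in Nf1-KO skin and Ctnna1 at 0.31 in control skin. Of all 23635 genes, that scaling called 12240 higher and 793 lower in Nf1-KO skin, and 9884 higher and 3970 lower in control skin. By genotype 0 of the 9 were called. Nectin1 had the smallest p in uninjured skin (0.88, adjusted p = 0.537), Cdh1 in injured skin (-0.34, adjusted p = 0.716) and Nectin1 in the interaction (-1.05, adjusted p = 0.446).

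Another list held 8 genes, namely transcription factors of the epidermis, proteases that cut desmosomes at shedding and their inhibitor gene Spink5. Most were called lower in injured skin under TMM scaling, but most were not called relative to pan-epithelial genes. All 8 fell in Nf1-KO skin, beside 18.4% of all genes, with a median log2 fold change of -1.27 beside -0.09 for all genes. In control skin 6 of 8 fell, beside 32.5% of all genes, with a median of -1.17 beside -0.21. The kallikrein Klk7 (-0.12, adjusted p = 0.706) and Klf4 (-0.42, adjusted p = 0.0667) were not called there. With the ribosomal RNA-like covariate 7 were called lower in Nf1-KO skin and 1 in control skin, beside 2318 and 4131 of all 23635 genes. Spink5, which encodes the LEKTI inhibitor of kallikreins, was at -1.84 ± 0.22 in Nf1-KO skin (adjusted p = 1.10e-05) and at -1.17 ± 0.21 in control skin (adjusted p = 0.000432). Trp63, the p63 regulator of stratified epithelia, was at -1.65 ± 0.29 in Nf1-KO skin and at -1.55 ± 0.29 in control skin. Klk5, a kallikrein that cleaves corneodesmosomes, and Klf4, a factor of barrier formation, were at -1.36 ± 0.22 and -1.02 ± 0.19 in Nf1-KO skin. Klk5 was also called in control skin, at -0.55 ± 0.22. Grhl3, a factor of epidermal differentiation, was at -2.64 ± 0.49 in Nf1-KO skin and at -2.44 ± 0.49 in control skin. Relative to pan-epithelial genes, which include Trp63, the genes called lower were Grhl3, Trp63 and Spink5 in Nf1-KO skin and Grhl3 and Trp63 in control skin. Klk7 was called higher in control skin at 0.71. Of all 23635 genes, that scaling called 793 lower in Nf1-KO skin, and 3970 lower and 9884 higher in control skin. By genotype 0 of the 8 were called, with 0 at an unadjusted p under 0.05 in uninjured skin, where Grhl1 had the smallest (-0.47), and 3 in injured skin, where Klk5 had the smallest (-0.69, adjusted p = 0.355). In the interaction Klk5 also had the smallest p (-0.80, adjusted p = 0.442).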

How the data were processed

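Whole-skin RNA was measured by bulk RNA-seq in 12 samples. Per the labels' protocols, RNA from an RNeasy Fibrous Tissue kit was amplified from 10 ng with Smart-Seq v4 and made into Nextera XT libraries, which do not mark strand. The authors deposited unscaled read counts by Ensembl gene ID, whole numbers with unequal totals. The tools listed in the submitters' processing notes are STAR 2.5.2b with HTSeq 0.5.3, SAMtools, HOMER and DESeq2, and the build is mm10. Which tool did what, and how strand was set, is not given in the sources used here. In the deposited tables, 1 column of no listed sample was not used.

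Of 53379 gene IDs, 53274 matched GENCODE M21, which supplied symbols, coordinates and exon lengths. The fit in edgeR 4.0.16 (R 4.3.3) took all 12 libraries as 4 group means after TMM scaling, keeping genes that passed filterByExpr with min.count 10. Its robust quasi-likelihood test was 2-sided, adjusted by Benjamini-Hochberg over 23635 genes and called at adjusted p under 0.05. The script was tested on simulated data in which few genes changed, as many up as down. Shifts as broad as those after injury were not simulated. CPM are TMM-normalised unless called raw. Shares were compared by exact permutation tests. Reads carry no molecular identifiers. Pairs of libraries within a group differed by a chi-square per degree of freedom of 11.4 to 102, more than read counting alone gives. These values cannot show whether the samples of a group are separate animals or repeats from the same RNA.

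The members and lists were chosen with earlier results of these data known. All 10 members are described. From each list, up to 4 called genes per comparison were named by smallest p, or, where no gene of the list was called, the one with the smallest p, and for likeness the 3 genes with the highest r, printed for the members the results turn on. A gene that the rule names is not reported here. Alternatives were median-of-ratios scaling, scaling to pan-epithelial genes, other filters, DESeq2 1.42.0, a replicate block, the compared groups alone, a ribosomal RNA-like covariate and leaving out libraries. Leaving out control uninjured replicates 1 and 2, or Nf1-KO injured replicates 2 and 3, was added after the data were seen.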

Additional observations from a re-analysis of the deposited data

How the results depend on the processing

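After injury, Dsg1a, Dsg4, Dsc1 and Dsc3 were called in the same direction in both genotypes under all 15 alternatives, fits without single libraries included, and Dsc2 in 15 in Nf1-KO skin and 14 in control skin. Leaving out 1 library gave 6 to 8 members called in Nf1-KO skin, 8 to 9 in control skin and 0 in the genotype and interaction comparisons. Members called after injury in control skin numbered 5 with the ribosomal RNA-like covariate. Without Nf1-KO injured replicates 2 and 3 there were 6 in Nf1-KO skin, Dsg3 being lost (adjusted p = 0.140). For Nf1-KO in uninjured skin, no filter gave 1. Without division by length the Dsg4 share differed by 2.40 percentage points in Nf1-KO skin and 1.35 in control skin. Of the members' values under settings other than leave-one-out, 411 kept direction and side of the threshold, 6 gained a call, 11 lost it and 22 changed sign.

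Genes called over all those tested came to 5419 after injury in Nf1-KO skin with the ribosomal RNA-like covariate (leave-one-out 5647, without Nf1-KO uninjured replicate 2, to 10020), and in control skin to 7059 with that covariate and 6164 without control uninjured replicates 1 and 2. For Nf1-KO in uninjured skin they came to 27 with the compared groups alone, 60 with DESeq2, 2 with the 2 CPM filter, 4 with median-of-ratios scaling, 219 with no filter, 1 with the replicate block, 3 with the covariate, 0 with pan-epithelial scaling and 0 to 6 in leave-one-out fits. For Nf1-KO in injured skin they came to 124 with DESeq2, 410 with no filter, 2 with the covariate, 7 without Nf1-KO injured replicates 2 and 3 and 0 to 89 in leave-one-out fits, the highest without Nf1-KO injured replicate 2. For the interaction they came to 37 with DESeq2, 236 with no filter, 2 with the covariate, 2 without control uninjured replicates 1 and 2, 9 without Nf1-KO injured replicates 2 and 3 and 0 to 3 in leave-one-out fits.

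Signs changed as follows. With pan-epithelial scaling, injury gave 0.29 for Dsg1b, 0.73 for Dsg2 and 0.51 for Pkp3 in Nf1-KO skin, and 0.13 for Pkp1 and 0.43 for Pkp3 in control skin. The same scaling gave 0.12 for Pkp1 and 0.085 for Pkp3 for Nf1-KO in uninjured skin, 0.065 for Dsg3, 0.0013 for Dsc3 and 0.16 for Pkp3 for Nf1-KO in injured skin, and 0.079 for Pkp3 in the interaction. With the covariate, injury in control skin gave 0.15 for Pkp3, Nf1-KO in uninjured skin gave 0.047 for Pkp1 and 0.24 for Pkp3, and the interaction gave -0.30 for Dsg1a and -0.038 for Dsc1. Without Nf1-KO injured replicates 2 and 3, Dsg4 was at -0.17 for Nf1-KO in injured skin, and the interaction was -0.23 for Dsg1a and -0.11 for Dsc1. Without control uninjured replicates 1 and 2 the interaction was 0.0395 for Pkp1 and 0.38 for Pkp3, and with no filter it was -0.061 for Dsg1a. Leave-one-out ranges that crossed 0 were -0.29 to 0.26 for Pkp1 and -0.22 to 0.15 for Pkp3 in uninjured skin, and -0.048 to 0.39 for Dsg2, -0.22 to 0.74 for Dsg4 and -0.55 to 0.042 for Pkp3 in injured skin. In the interaction they were -0.34 to 0.21 for Dsg1a, -0.0088 to 0.99 for Dsg3, -0.088 to 0.98 for Dsc1 and -0.44 to 0.15 for Pkp3. The cause of these changes was not tested.

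Same-numbered libraries correlated from -0.42 to 0.38 after group means were subtracted. Differently numbered libraries were not compared in this way, so the values cannot show whether the numbers pair the libraries. With the replicate block, members called were 7 in Nf1-KO skin and 9 in control skin after injury and 0 in the other comparisons. Small counts limit Dsg4 in uninjured libraries, and 3 libraries per group limit every comparison.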
